A study of Saccharomyces cerevisiae with 4 samples.

Results

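The outermost 20 kb of the 16 nuclear chromosomes of the budding yeast Saccharomyces cerevisiae were examined for Arp4 binding. A protein-coding gene belonged to them when it lay wholly within 20 kb of the outer edge of the first or last annotated gene of its chromosome. This gave 239 of 6002 nuclear protein-coding genes on 32 arms, with 4 to 11 genes per arm (median 7.5), and the Y' helicase genes YRF1-1 to YRF1-8 were all among them. At the 20 kb limit, the genes just inside were MRC1 and YPR195C, with inner edges at 19981 and 19737 bp and no summit. Those just outside were YAL064W (20044 bp), with no summit, and ERG13 (20075 bp), with 1 summit at its promoter. The choice of genes used position only and no measured value.

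The study used wild-type cells grown in rich medium at 30 °C to mid-log phase (OD600 of 0.6). In 2 samples the cells carried Arp4-3Flag and in the other 2 they had no tag. Flag antibody was used for precipitation in all 4, followed by sequencing. The data analysed are 1 list of 1430 Arp4 peaks without values per sample, so no value below has a replicate error and the untagged cells were not analysed here. No test was made, and shares are given beside those over all genes or peaks.

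Arp4 is a nuclear actin-related protein and a shared subunit of the histone acetyltransferase NuA4 and the remodelling complexes SWR1 and INO80. Yeast chromosomes end in short telomeric repeats, next to which lie the X element and, on some arms, copies of the Y' element, which encodes a helicase. The DNA further in is known for gene families with copies on many arms, for sugar and metal transporters and cell wall proteins, and for silencing by the Sir proteins. The series title names telomere loci among those protected by Swc4, a subunit of NuA4 and SWR1.

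Arp4 summits were sparse in the chromosome ends. Of 239 genes there, 23 had a summit in the promoter or the body (9.62%, Wilson 95% interval 6.50 to 14.0), against 1294 of 5763 genes elsewhere (22.5%, 21.4 to 23.5) and 21.9% of all genes. The promoter window began 500 bp before the annotated start and ended 100 bp into the gene, and the body was taken as the part of the gene over 100 bp from both ends. Promoter summits were found at 9 genes in the ends (3.77%, interval 1.99 to 7.001), against 828 elsewhere (14.4%, 13.5 to 15.3) and 13.9% of all genes. Body summits were found in 15 genes in the ends (6.28%, interval 3.84 to 10.1), against 597 elsewhere (10.4%, 9.60 to 11.2) and 10.2% of all genes. The promoter intervals of ends and rest were well apart, whereas the body intervals overlapped. The intervals cover counting over genes only, and many genes of the ends are copies of each other.

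Ribosomal protein genes, which carry many of the peaks of this list, were absent from the ends (0 of 137 lie there). Without them, genes elsewhere had a promoter or body summit in 1168 of 5626 cases (20.8%, Wilson 95% interval 19.7 to 21.8), still above the share in the ends. For body summits alone, the share elsewhere was then 8.66%, which lay within the interval of the ends (3.84 to 10.1).

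The 31 end summits lay on 16 of the 32 arms. Of these, 8 arms had 1 summit, 4 had 2 and 4 had 3 or more. Right arms with a summit numbered 9 of 16 and left arms 7 of 16. The right arm of chromosome XII had the most, 5, followed by the right arm of XIII with 4 and the left arms of XIII and XIV with 3 each. Both arms of 4 chromosomes had a summit, and neither arm of 4 others did. The summits were thus spread over many arms, while the arms without one held about as many genes (123, against 116 on arms with one).

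**Figure D1:**
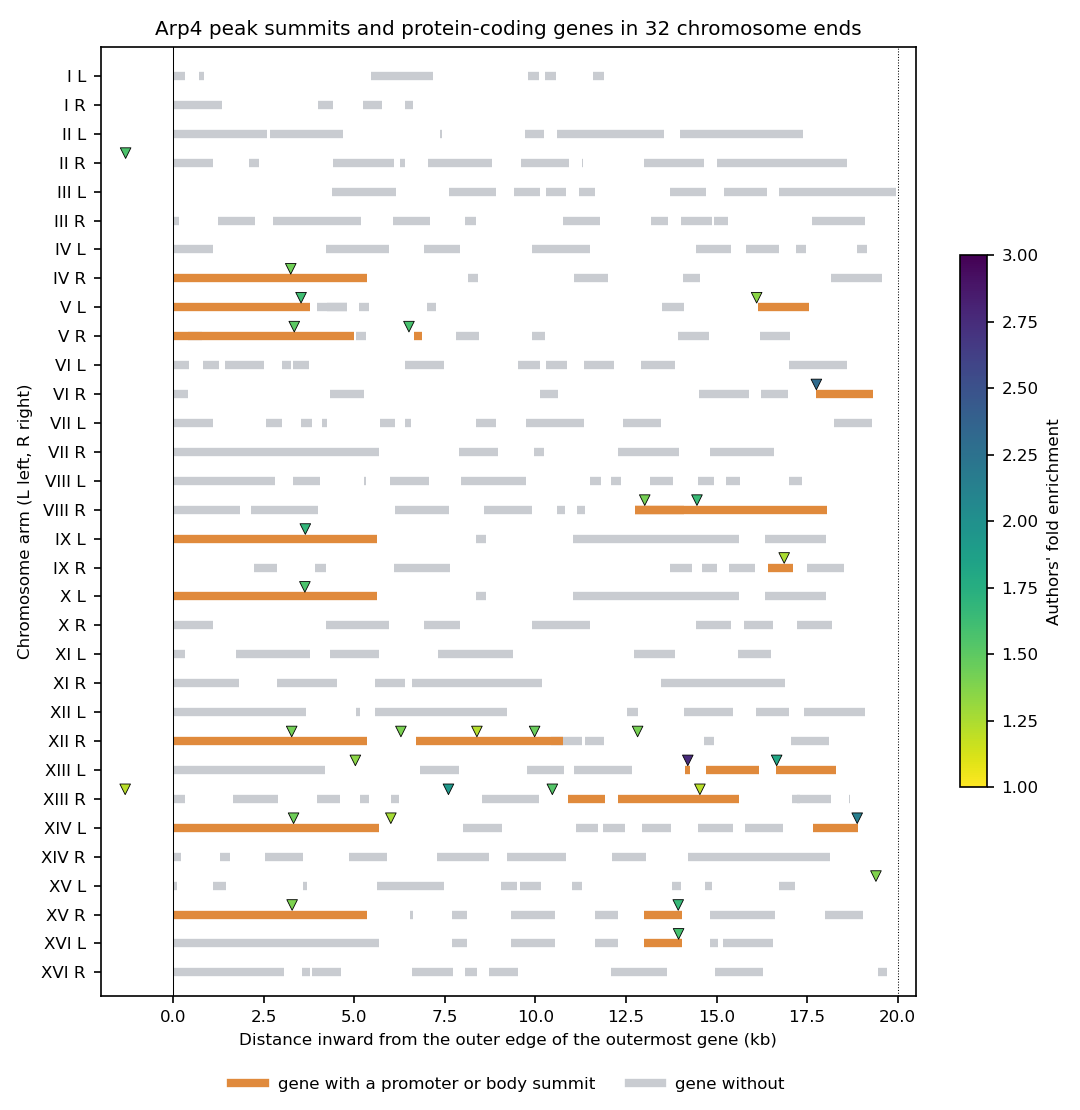
Each row is a chromosome arm, with protein-coding genes as bars (orange where the promoter or body held a summit) and the 31 summits as triangles coloured by the authors' fold enrichment. The x axis is the distance in kb inward from the outer edge of the outermost annotated gene. Summits at about 3.2 to 3.7 kb recur on 8 arms, and the darkest triangles lie more than 14 kb from the end.

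On the 16 arms without a summit in the outermost 20 kb, the first summit inward was met at 21.6 to 60.6 kb (median 35.3 kb). It was nearest on the left arm of III, close to ADF1 (21.6 kb), and on the right arm of X (26.1 kb). It was farthest on the right arm of I (60.6 kb), on the left arm of VI at TUB2, which encodes beta-tubulin (56.4 kb), and on the left arm of VII at MTO1 (53.2 kb). On the right arm of XVI it lay 74 bp inside RPC82, a subunit gene of RNA polymerase III, 28.7 kb from the end and with a fold of 2.70. These arms were picked for having no summit within 20 kb, so a first summit beyond that limit was given by the choice. The 16 arms with an end summit were compared by their first summit beyond 20 kb. It lay between 20.488 kb (left arm of XIII) and 73.925 kb (left arm of X). That range covers the values of the empty arms, so these distances do not set empty ends apart.

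Summit density was low throughout the outermost 30 kb. It was 5.0 summits per 100 kb in the outermost 5 kb (8 summits, Poisson 95% interval 2.16 to 9.85), 4.38 from 5 to 10 kb, 5.0 from 10 to 15 kb and 3.75 from 15 to 20 kb. From 20 to 30 kb it was 4.38 (14 summits, interval 2.39 to 7.34). It was 10.8 from 30 to 50 kb (69 summits, interval 8.39 to 13.6), 12.3 from 50 to 100 kb and 12.7 beyond. The step in these bins thus lay at 30 kb and not at the 20 kb limit of the ends. Genes were also more widely spaced in the ends, with 39.1 per 100 kb in the outermost 20 kb, against 50.5 per 100 kb further in. That difference in spacing was smaller than the difference in summits (4.53 against 12.3 per 100 kb). A further 2 summits lay outward of the outermost annotated gene and are in no distance bin.

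**Figure D2:**
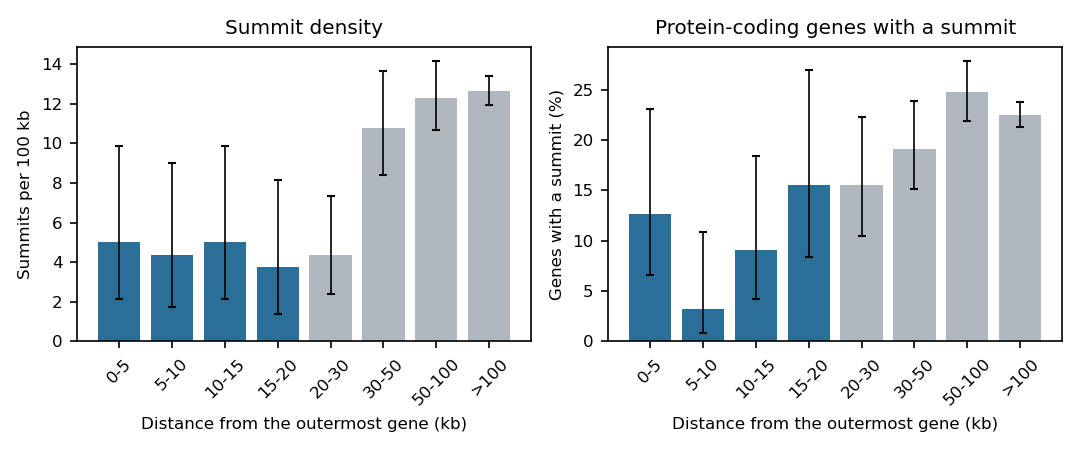
The left panel gives summits per 100 kb by distance from the outermost gene, with Poisson 95% intervals. The right panel gives the percentage of protein-coding genes, placed by their midpoint, with a promoter or body summit, with Wilson 95% intervals; blue bars are the outermost 20 kb. Density was 3.75 to 5.0 per 100 kb up to 30 kb and at least 10.8 beyond.

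Peaks in the ends had lower folds than elsewhere. Their median fold enrichment, the authors' ratio at the summit over the peak caller's background, was 1.45 (range 1.21 to 2.76, 31 peaks), against 1.67 for peaks elsewhere (range 1.02 to 6.32, 1399 peaks). Without the summits inside the YRF1 genes, the median of the ends was 1.57 (24 peaks), nearer to that elsewhere. Of the 31 peaks, 3 had a fold of 2 or more (9.68%, Wilson 95% interval 3.35 to 24.9), against 343 of 1399 elsewhere (24.5%, 22.3 to 26.8) and 24.2% of all peaks. A fold of 3 or more was found at 0 of 31, which allows a share of up to 9.68% (3 counts of 31; Wilson upper bound 11.03%), against 81 elsewhere and 5.66% of all peaks, so 31 peaks were too few to show a difference. The median −log10 q was 12.4 in the ends and 16.2 elsewhere, and the median width was 399 bp in the ends and 359 bp elsewhere. When only peaks at or above the list's median fold were kept, 6 remained in the ends, with a median of 2.04 against 1.97 elsewhere. The peaks elsewhere include those at ribosomal protein genes, which are absent from the ends. Some of these had high folds, such as 5.15 at RPS21B and 5.08 at RPL42B. Folds were not compared without them, and their part in the difference was not tested.

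The fold and p of each peak also gave the coverage behind it. Under an assumed Poisson relation with a pseudocount of 1, solving for both returned a pileup (fragments covering the summit) that was whole within 0.05 for 1417 of 1430 peaks (99.1%) and for all 31 in the ends. The median pileup was 366 fragments in the ends and 333 elsewhere. The median background, the number of fragments the caller set as local expectation, was 246 in the ends and 187 elsewhere. These medians pool unlike summits. The 8 that lay 3 to 4 kb from the outermost gene edge had a median pileup of 540 fragments over a background of 366. The other 23 had a median pileup of 293 over a background of 186, a background close to that elsewhere with a lower pileup. The lowest background in the list, 120, was shared within 0.01 by 136 peaks, of which 0 lay in the ends.

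The Y' helicase genes, counted here by the name YRF1, were the family with the most summits in the ends. All 8 are transcribed towards the chromosome end, and 6 had a body summit. YRF1-1 (right arm of IV) had a pileup of 642 over a background of 448, a fold of 1.43 (chromosome IV, 1528329 to 1528760). YRF1-2 (right arm of V) had 548 over 364, a fold of 1.51 (chromosome V, 573081 to 573314). YRF1-5 and YRF1-4 lie on the right arm of XII, YRF1-5 outermost and YRF1-4 inward of it. YRF1-5 had 597 over 419 (1.43; 1074497 to 1074960), and YRF1-4 had 512 over 352 (1.45; 1067805 to 1068036). YRF1-6 (left arm of XIV) had 531 over 369 (1.44; 3251 to 3789), and YRF1-8 (right arm of XV) had 599 over 429 (1.395; 1087472 to 1087922). The 6 folds lay within one another's 95% Poisson intervals for the pileup, the highest lower bound being 1.38 and the lowest upper bound 1.51. YRF1-3 (right arm of VII) and YRF1-7 (left arm of XVI) had no summit at the promoter or in the body.

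The position of these summits varied little between copies. They lay 3249 to 3346 bp from the 3′ end of the gene, a span of 97 bp, although they lay 832 to 2400 bp from the annotated starts, since the copies differ in annotated length (4149 to 5728 bp). YRF1-4 had another, weaker summit 1723 bp from its 3′ end (fold 1.22, −log10 q of 3.59). YRF1-6 was the 1 member with a promoter summit, 284 bp upstream of its start (fold 1.27, −log10 q of 2.89). These genes are near-identical copies, and the sources used here do not say how reads that map to several places were treated. The copies are therefore not independent, and a summit in 1 copy cannot be told apart from signal of another.

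On 3 other arms the outermost gene held a summit somewhat further from its 3′ end than in the YRF1 genes, with a higher fold and a lower background. YIL177C on the left arm of IX had a summit 3651 bp from its 3′ end (429 over 255, fold 1.68; 3768 to 4613). YJL225C on the left arm of X had one at 3639 bp (416 over 265, fold 1.57; 3536 to 4247). YEL077C on the left arm of V had one at 3533 bp (485 over 300, fold 1.61; 3640 to 3874). The gene table gives these 3 no name beyond the systematic one, so whether they are further Y' copies was not determined. YIL177C and YJL225C have the same annotated length (5665 bp). The caution on shared reads may therefore apply to these genes too. Of 13 arms whose outermost gene was longer than 3 kb, 8 had a summit inside it; YRF1-3, YRF1-7, YLL067C, YML133C and YPR204W had none. The length of 3 kb was chosen after the positions had been seen, and a shorter gene could not hold a summit that far from its 3′ end.

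**Figure D3:**
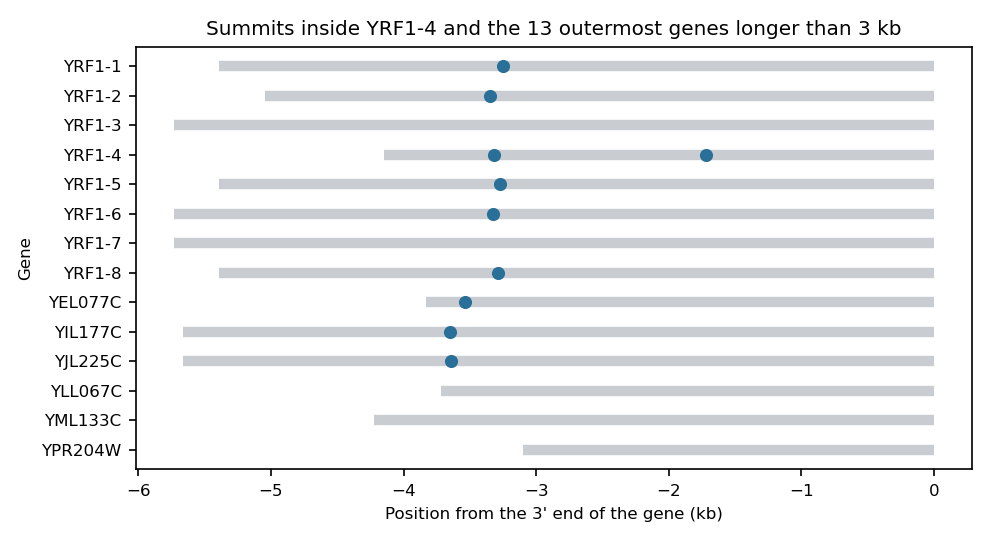
Grey bars are the 13 outermost genes longer than 3 kb and YRF1-4, drawn to scale and aligned at the 3′ end, with the x axis in kb; points are summits inside them. Summits of the YRF1 genes line up at 3.25 to 3.35 kb and those of the other 3 genes at 3.53 to 3.65 kb, with 1 further summit in YRF1-4.

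All 8 end summits of the outermost 5 kb fell in this zone, 3249 to 3651 bp from the outermost gene's edge. Their median fold, 1.47, was close to that of the other 23 end summits (1.45), although pileup and background, given above, were higher. Beside 486 peaks elsewhere in the list with folds in the same range, they also had the higher median −log10 q (15.6 against 10.3) and background (366 against 194). In the 6 YRF1 summits the background was 2.92 to 3.72 times the lowest in the list, and 10.4% of all peaks had a background at or above the lowest of the 6. What part this background had in the result was not tested. Without these 8 summits, 13 arms had a summit and body summits were found in 7 genes (2.93%). The zone was chosen after the positions had been seen.

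**Figure D4:**
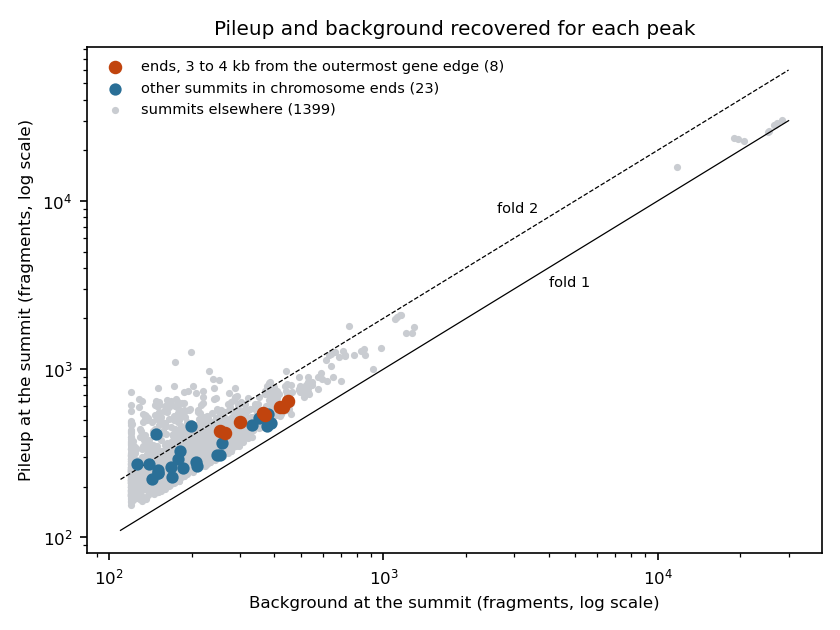
Pileup at the summit against the caller's background, both in fragments on log scales, for each peak; lines mark folds of 1 and 2. The 8 summits 3 to 4 kb from the outermost gene edge (red) lie at backgrounds of 255 to 448, to the right of most other end summits (blue), whose median is 186.

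A further 4 summits lay 5 to 7 kb from the end, all between genes. On the right arm of XII a summit lay 899 bp upstream of YRF1-5 (fold 1.4002; 1071469 to 1071807). On the right arm of V one lay 107 bp upstream of YER188C-A (1.58; 569863 to 570276), and on the left arm of XIII one lay 809 bp upstream of YML133C (1.35; 5409 to 5948). The fourth was the promoter summit of YRF1-6. All 4 arms have a gene longer than 3 kb at their end, and on 3 of them that gene also held a summit.

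Genes with textbook roles outside the subtelomeric families carried the strongest peaks of the ends, mostly just inside the start. COX14, a mitochondrial factor in the assembly of cytochrome c oxidase, had the highest fold, 2.76, with the summit 86 bp inside the gene (left arm of XIII, 14526 to 14849). RET2, encoding a subunit of the COPI vesicle coat, followed with 2.31, its summit lying 41 bp inside (right arm of VI, 251617 to 252589). RPD3, encoding a histone deacetylase, had 2.15, with the summit 50 bp inside (left arm of XIV, 19141 to 19641). These 3 were the end peaks with a fold of 2 or more. Among all 1430 peaks they ranked 105, 178 and 242 by fold. All 3 lay 14.2 to 18.9 kb from the end, and their backgrounds (148, 198 and 126 fragments) were below those of the YRF1 summits.

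RSC9, encoding a subunit of the RSC remodelling complex, had a fold of 1.81, its summit lying 55 bp inside (left arm of XIII, 16992 to 17224). The same summit also fell in the promoter window of the neighbouring gene MSC1. DLD3, which encodes a D-lactate dehydrogenase, had a weak peak of 1.35 with its summit 15 bp inside (left arm of V, 16162 to 16411). Over all end peaks, 7 of 31 summits lay in the first 200 bp of a gene (22.6%, Wilson 95% interval 11.4 to 39.8), against 373 of 1399 elsewhere (26.7%, 24.4 to 29.0). Summits between genes made up 9 of 31 in the ends (29.0%, 16.1 to 46.6), against 372 elsewhere (26.6%, 24.3 to 29.0). The intervals overlapped in both cases, so no difference in placement around genes was detectable with 31 summits.

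Other summits lay at genes for transport across the membrane, which were grouped after their positions were seen. FET4, the low-affinity iron transporter of the plasma membrane, had a summit 876 bp upstream of its start, beyond the promoter window, with a fold of 1.94 (right arm of XIII, 914848 to 915532). The fluoride exporter genes FEX1 and FEX2 lie on different chromosomes, and both had a summit near the start. At FEX1 it lay 137 bp inside, with a pileup of 251 over a background of 151 (1.66; right arm of XV, 1076810 to 1077162). At FEX2 it lay 123 bp inside, with 240 over 151 (1.59; left arm of XVI, 13974 to 14327). The 2 folds differed by less than the counting error, with 95% Poisson intervals of 1.46 to 1.88 for FEX1 and 1.39 to 1.80 for FEX2. These genes are close copies as well, so the same caution on shared reads applies. ENB1, a siderophore transporter gene, held a summit at 19.4 kb on the left arm of XV (1.38), but the gene reaches past the limit and was not counted.

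The remaining summits had folds of 1.21 to 1.65. On the right arm of XIII, ADH6, an alcohol dehydrogenase gene, had a summit 404 bp upstream (1.54; 912332 to 912584), and YMR317W had a body summit (1.22; 908199 to 908504). On the right arm of IX, NRE1 had a body summit (1.26; 421136 to 421456). On the right arm of VIII, the overlapping genes YHR214C-B and YHR214C-C shared a summit (1.42; 548875 to 549197), and YHR214C-B held another (1.65; 547408 to 548461). Whether YHR214C-B and YHR214C-C have copies elsewhere was not determined, so the caution on shared reads may apply to both. The right arm of XII had a summit 879 bp upstream of YLR462W (1.41; 1064806 to 1065211). Outward of the outermost annotated gene, a summit lay 1308 bp beyond COS2 on the right arm of II (1.57; 812619 to 813035). Another lay 1320 bp beyond PAU19 on the right arm of XIII (1.21, −log10 q of 2.13; 924088 to 924354).

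Genes of 10 subtelomeric lists, which leave out the Y' helicase and FEX genes, had no summit at the promoter or in the body. Of these, 0 of 67 members in the ends had one, which allows a share of up to 4.48% (3 counts of 67), against 21.9% of all genes. This limit counts copies as separate genes, and the lists were chosen with earlier results of these data known. As end families with summits are left out, the 0 describes these lists only and not the families of the ends at large. Many of these genes are copies of each other, and how reads mapping to several places were treated is not stated. A lack of summits here therefore cannot be told apart from reads that were not placed. Seripauperin genes, which encode cell wall mannoproteins, had 0 of 19, among them PAU8 and PAU9. COS genes, which encode membrane proteins, had 0 of 11, among them COS2 and COS7. Genes for maltose and isomaltose use had 0 of 9, such as MAL31 and MAL33, and genes of thiamine precursor and vitamin B6 synthesis had 0 of 9, such as THI13 and SNO3. Aryl-alcohol dehydrogenase genes had 0 of 5, such as AAD3 and AAD4, and enolase-related genes 0 of 3, such as ERR1 and ERR3. Hexose transporters had 0 of 3 (such as HXT15 and HXT16), flocculins 0 of 1 (FLO10), and the silent mating type genes HMLALPHA1 and HMLALPHA2 had none.

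Members of these families elsewhere in the genome were mostly empty too. Seripauperins had 0 of 5 there, hexose transporters 0 of 13, the maltose and isomaltose list 0 of 5 (SUC2 included) and flocculins 0 of 4. The iron and siderophore uptake list was the exception, with 0 of 5 in the ends and 4 of 15 elsewhere, ENB1 included. Its members in the ends include GEX1, ARN2 and also FET4, whose summit lay beyond the window. Genes were put in lists by name, so a member such as GEX1 need not act in uptake. Lack of summits in these lists was thus not limited to their members in the outermost 20 kb. How far from the ends the members elsewhere lie was not examined. Summit density was also low from 20 to 30 kb (4.38 per 100 kb), so an extension away from the ends is not shown. The other genes of the ends were in between. Those with a symbol of their own had a promoter or body summit in 10 of 77 cases (12.99%), against 1135 of 5105 genes with a symbol elsewhere (22.2%). Those with a systematic name only had one in 7 of 87 (8.05%), against 159 of 658 elsewhere (24.2%). These are unlike sets, since the genes elsewhere keep the members of all lists. Among them are the 137 ribosomal protein genes, of which 126 had a promoter or body summit.

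Several arms carry the same order of genes, and their summits were compared copy by copy. Reads of one copy may have been placed on another, so a match between copies is not independent. From the end inward, the left arm of IX carries YIL177C, PAU14, VTH1 and IMA3, and the left arm of X carries YJL225C, PAU1, VTH2 and IMA4. Each had 1 summit, 3651 and 3639 bp from the end, and then none until RPL40A at 68.0 kb on IX and RPS14B at 73.9 kb on X, both ribosomal protein genes. The right arm of XV carries YRF1-8, PAU21, ERR1, HSP33 and FEX1, and the left arm of XVI carries YRF1-7, PAU22, ERR2, HSP32 and FEX2. The FEX genes of both had a summit, 13942 and 13952 bp from the end, but YRF1-8 had a body summit and YRF1-7 had none. The left arm of IV and the right arm of X share COS, MPH, SOR, HXT, THI and AAD genes in order, and neither had a summit.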

How the data were processed

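Per the labels' protocols, sonicated chromatin was precipitated with Flag antibody. The submitters' processing notes name MACS2, SAMtools 1.4, BWA 0.7.15-r1140 and fastp 0.21.0. Settings, genome build, control, pooling and handling of multiply mapping reads are not stated there. The deposited list holds positions (printed counted from 1), a fold enrichment (linear ratio), −log10 p and q values (lowest −log10 q 1.31) and a score by the authors, which was not used. The deposited list does not give the libraries' read depth.

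Genes came from a RefSeq table of assembly R64, with strand read from systematic names; no sequence was used. Only peak coordinates are printed, and distances assume that peaks and table share a build. As a check, 48 of 275 tRNA genes lay within 100 bp of a summit, and shifting all summits by 200 to 1000 bp left 4 to 13. Distances run inward from the outermost annotated gene, not from the chromosome's last base.

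The fold was taken as (pileup + 1) / (background + 1) and the p as the Poisson chance of exceeding the pileup. This form is an assumption, checked by whether the pileups came out whole, and both equations were solved for pileup and background. The solution was tested on data simulated with the same equations, which checks the arithmetic only and not the assumed form. Intervals on a fold cover the pileup's counting error only, and Wilson and Poisson 95% intervals cover counting error only. The genes, the 12 gene lists and the measures were chosen with earlier results of these data known. Named genes are the 23 with a promoter or body summit, all YRF1 genes, the 10 end peaks of highest fold, each arm's outermost end summit, up to 2 members of each list with and 2 without a summit, the HML genes and those at the 20 kb limit. Other genes were named after their positions were seen. Alternatives covered the distance limit, peak thresholds, overlap rules, promoter windows and the Y' helicase genes. The computations used pandas 2.3.3, scipy 1.17.1, numpy 2.4.6 and matplotlib 3.10.9 under Python 3.11.15.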

Additional observations from a re-analysis of the deposited data

How the results depend on the processing

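Of 38 alternatives, 28 left the value within its counting interval or, for arms, within 1.5 times. The other 10 include the alternative pseudocounts, which were counted as moved without an interval. The share of genes with a summit was lower in the ends than elsewhere in 19 of 19 alternatives for promoters and bodies. These alternatives reuse the same peaks and are not independent. For bodies the shares were close with a −log10 q of at least 10 (5.02% in the ends, 6.11% elsewhere). With peaks at or above the list's median fold, 5 arms had a summit, 0.418% of genes in the ends had a body summit (3.59% elsewhere), and the median fold of the ends was 2.04 (1.97 elsewhere), which selection on fold itself raises. With a −log10 q of at least 10 the median fold of the ends was 1.61 (1.84 elsewhere). With a 10 kb limit 1.72% of genes in the ends had a promoter summit (14.2% elsewhere), and with a window from 250 bp upstream to the start 0.418% did (2.31% elsewhere). Without the summits 3 to 4 kb from the outermost gene edge, added after seeing the data, 2.93% had a body summit. Pseudocounts of 0, 0.5 and 2, also added later, gave whole pileups for 2.38%, 0.559% and 2.38% of peaks. Leaving out genes of transposable elements was planned but not run, since the gene table does not mark them. No paired analysis was possible because the list has no values per sample.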
